A study of Arabidopsis thaliana with 6 samples.

Results

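The subject is 10 zinc transporter genes of the ZIP family (ZIP1, ZIP2, ZIP3, ZIP4, ZIP5, ZIP6, ZIP7, ZIP9, ZIP10 and ZIP12) in roots of Arabidopsis thaliana (thale cress). They are the 10 loci listed by name as members, a list drawn up with earlier results of these data known, and all 10 were found among the 24438 genes of the deposited expression table. The roots came from wild type plants of ecotype Columbia at the vegetative stage. There were 3 groups of 2 RNA sequencing libraries: an unexposed control group, plants given aluminium oxide nanoparticles (nAl2O3) and plants given ionic aluminium. The design sets the response to the particulate form beside that to the dissolved form. The title puts nanoparticle replicate 2 in its group, although its other labels spell the compound nAl2O4. The sources used here give no dose, exposure time or growth medium. They do not say that libraries were grown as separate cultures, and the p-values reflect library-to-library spread alone, which may be technical.

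ZIP proteins (named for the yeast zinc and plant iron transporters ZRT and IRT) carry zinc and related divalent metals towards the cytosol, across the plasma membrane or out of internal stores. In Arabidopsis roots many of them are known for rising under zinc shortage, when the transcription factors bZIP19 and bZIP23 bind the zinc deficiency response element, a short palindromic DNA sequence in front of their target genes. Zinc taken up in this way is passed to the xylem by the pumps HMA2 and HMA4 or stored in the vacuole by HMA3 and MTP1.

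Because the members are grouped below by this element, the stretches that hold it are shown first. The element, 10 bases long, was searched on both strands in the 1000 bases before each start codon, in the RefSeq genome and annotation of build TAIR10.1. Being palindromic, it reads alike on both strands. It matched in front of 4 of the 10 members, namely ZIP4, ZIP5, ZIP10 and ZIP12, and in front of the relative IRT3. Of all 27443 coding genes with a full window, 77 (0.281%) held a match. The 8 inner letters TGTCGACA, which every match to the element contains, occurred in 0.926% of these windows. ZIP1 and ZIP9 had no exact match but held 1 stretch each that departs from the element at 1 base, as did 5.38% of all windows. A match is a description of the letters and no match says only that they are not in this window. Capitals mark the element, and each line reads 5′ to 3′ on the gene's strand.
ZIP4, minus strand, chr1:3667140-3667259, ending at the base before the annotated gene start: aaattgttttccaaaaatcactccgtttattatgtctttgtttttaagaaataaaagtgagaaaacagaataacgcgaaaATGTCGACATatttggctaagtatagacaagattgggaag
ZIP5, minus strand, chr1:1548642-1548761, with the element 822 bases before the annotated gene start: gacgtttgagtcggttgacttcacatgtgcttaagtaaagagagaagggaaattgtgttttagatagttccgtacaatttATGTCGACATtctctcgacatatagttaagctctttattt
ZIP10, minus strand, chr1:11177440-11177559, with the element 107 bases before the annotated gene start: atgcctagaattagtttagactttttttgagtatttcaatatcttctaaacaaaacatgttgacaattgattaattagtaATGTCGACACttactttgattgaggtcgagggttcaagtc
ZIP12, plus strand, chr5:24959860-24959979, with the element 157 bases before the annotated gene start: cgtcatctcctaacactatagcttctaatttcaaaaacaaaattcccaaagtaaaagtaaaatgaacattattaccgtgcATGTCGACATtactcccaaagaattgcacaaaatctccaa
IRT3, minus strand, chr1:22447300-22447404, ending at the base before the annotated gene start: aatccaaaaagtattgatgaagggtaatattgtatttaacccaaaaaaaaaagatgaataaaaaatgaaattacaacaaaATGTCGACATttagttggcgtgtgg

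ZIP4 and IRT3 each held a second match, between the annotated gene start and the start codon. That of ZIP4 begins 525 bases before its start codon, at position -525, and that of IRT3 at -166. ZIP10 and ZIP12 have no annotated leader, so their gene start is their start codon.

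**Figure D1:**
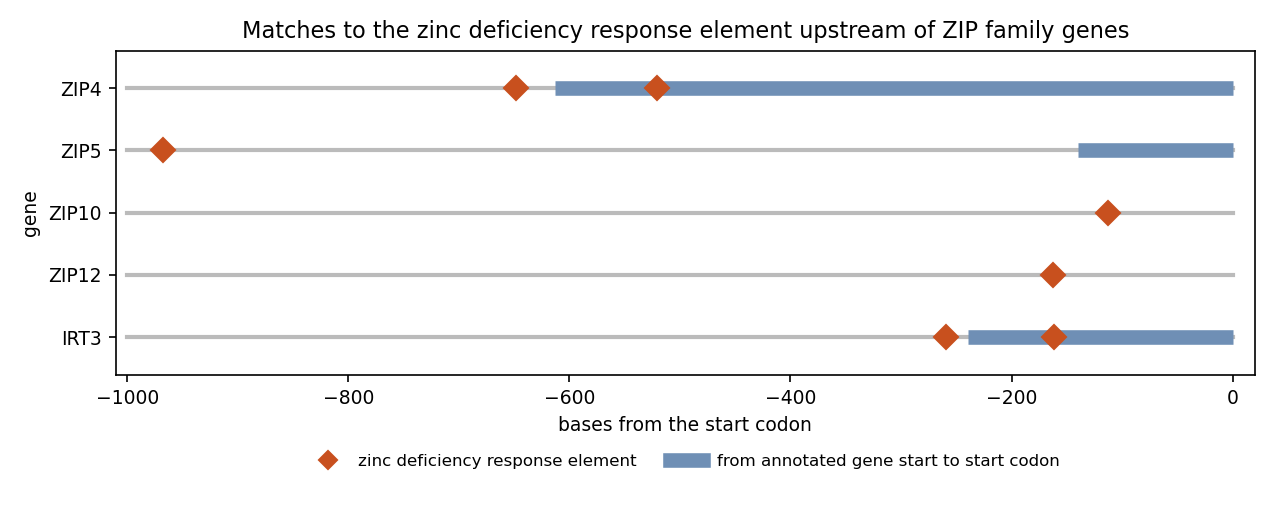
Matches to the zinc deficiency response element (diamonds) in the 1000 bases before the start codon, by gene; the x axis is the distance from the start codon in bases and the thick bar runs from the annotated gene start to the start codon. ZIP4 and IRT3 hold 2 matches each, ZIP5 holds 1 far upstream at -972, and ZIP10 and ZIP12 hold 1 each at -117 and -167.

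Levels are in RPKM, in which reads are scaled to gene length and library total, so that levels of different genes can be set side by side. Whole reads behind the RPKM values could be recovered, with library totals of 12318429 to 14489392 reads as the totals that most often gave whole reads. Totals exactly 2 times as large did so nearly as often. At this depth 3 reads, taken as the floor, equal an RPKM of 0.207 to 0.244 in a gene of 1 kilobase. This floor covers counting error only. On the first principal component, with 70.9% of the variance, the positions set the ion libraries (87.7 and 90.2) apart from the other 4 (-51.0 to -39.7). The second took 19.4% and set control replicate 2, at -68.4, apart from the rest, and replicates spread with a pooled log2 SD of 0.45 (control), 0.30 (ion) and 0.19 (nanoparticle). Values without single libraries are given below for the calls they change; where this leaves a group with 1 library, the spread comes from the other groups alone, the lone library is assumed to vary as they do, and passing there is no added support.

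Ionic aluminium against control asked which transcripts respond to the dissolved metal. Among the ZIP genes ZIP1 rose 4.61-fold, while ZIP10 fell from a low level to 0 reads. ZIP9 was also at 0 reads in both ion libraries, and ZIP12 had reads in no library outside the ion group. ZIP2, ZIP3, ZIP4, ZIP5 and ZIP6 did not pass the test, and ZIP7 was at or near 0 throughout. The test was limma on log2(RPKM + 1) over 19648 genes that reached 1 RPKM in 2 or more libraries. A gene passed when its p, adjusted by Benjamini and Hochberg, was under 0.05. ZIP7 and ZIP12 lay under this filter and were not tested. Of the 8 tested members 1 rose, against 12.3% of all genes tested, and 1 fell, against 10.3%, so both shares lie near the background. The median log2 fold change was 0.04 over the 8 tested members and 0.06 over all genes tested. ZIP9 and ZIP10 passed the filter only through the control and nanoparticle libraries, and over all 10 members the median was 0.09. In bulk roots, fewer cells of a type and less RNA per cell cannot be told apart.

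**Figure D2:**
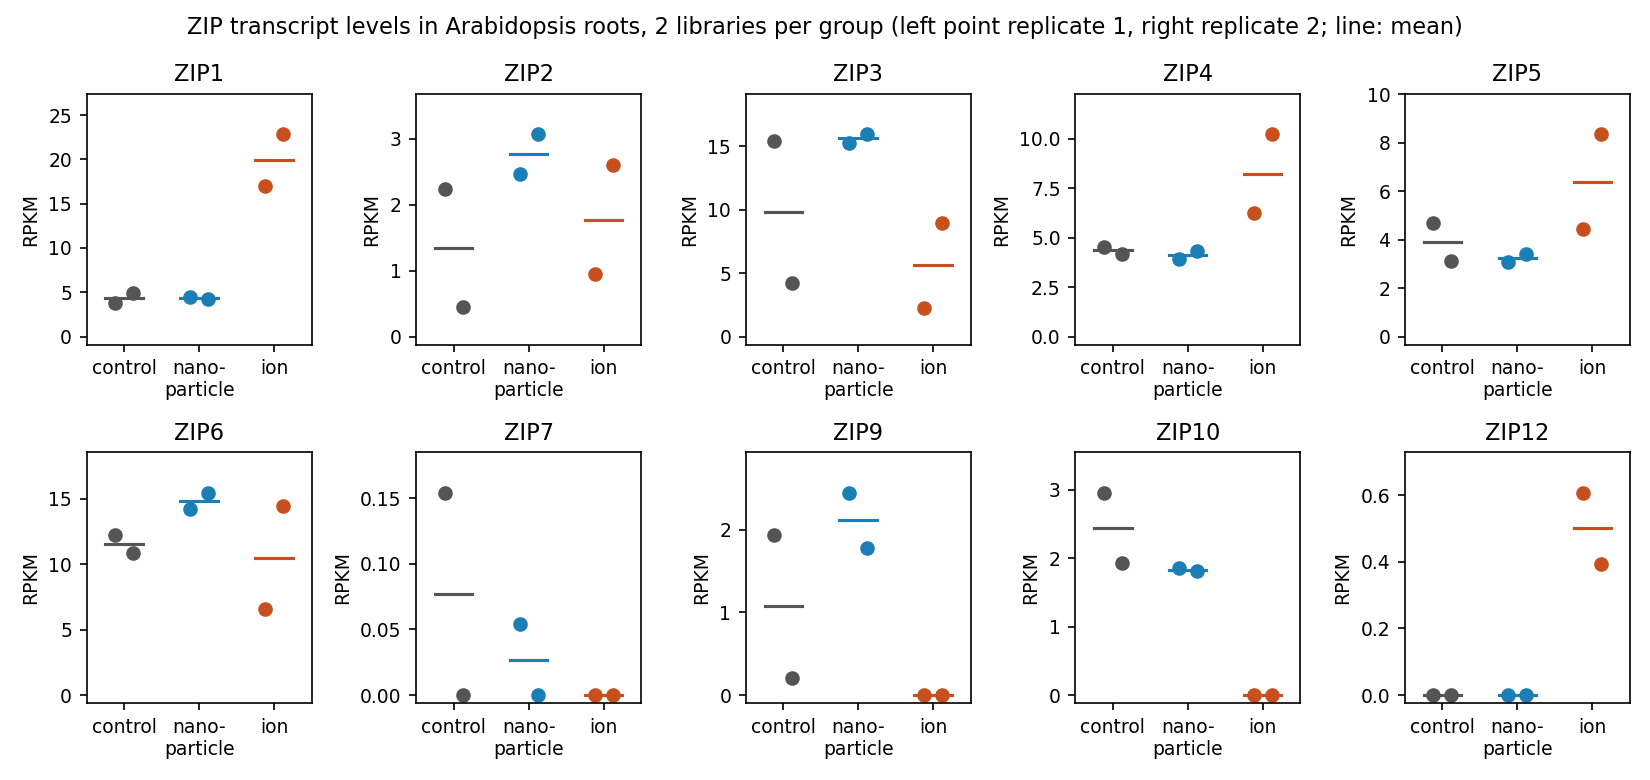
RPKM of each ZIP gene (y axes, each with its own scale) in the 6 root libraries (points) of the control, nanoparticle and ion groups (x axes), with the group mean as a line. ZIP1 lies at 17.02 and 22.9 RPKM in ion and under 5 elsewhere, ZIP9 and ZIP10 lie at 0 in ion, and ZIP12 lies above 0 only in ion.

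ZIP1 (AT3G12750, chr3:4051651-4053201, minus strand) encodes a transporter known from the vacuolar membrane, where it is linked to the release of zinc and manganese in cells of the stele. It stood at 3.81 and 4.97 RPKM in control, 4.52 and 4.22 in nanoparticle and 17.02 and 22.9 in ion roots. Both ion libraries were far above the other 4, which lay within a narrow band. In reads these were 78 and 96, 88 and 84, and 296 and 460. The log2 fold change of ion against control was 1.95 ± 0.22 (moderated standard error, limma adjusted p = 0.0020). ZIP1 shares 125 bases with ALIS1 (AT3G12740) on the opposite strand, so that without strand their reads cannot be told apart there, and strand handling is not stated. ALIS1, a subunit of lipid-flipping ATPases, stood at 57.0 and 57.2 RPKM in ion and 70.6 to 97.4 in the other libraries.

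ZIP2 (AT5G59520, chr5:23991213-23992908, minus strand), a plasma membrane relative that is likewise linked to zinc and manganese in the root stele, was low and variable. It stood at 2.24 and 0.452 RPKM in control, 2.47 and 3.07 in nanoparticle and 0.942 and 2.61 in ion roots. Control and ion overlapped, and control replicate 2 and ion replicate 1 were the lowest libraries. The log2 fold change of ion against control was 0.29 ± 0.45 (limma adjusted p = 0.674).

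ZIP3 (AT2G32270, chr2:13704068-13706928, plus strand), which restores zinc uptake in yeast that lacks its own transporters, was among the most abundant members outside the ion group. Its levels were 15.4 and 4.25 RPKM in control, 15.3 and 16.0 in nanoparticle and 2.27 and 8.95 in ion roots. The ion values lay on either side of control replicate 2 and below control replicate 1. At -0.70 ± 0.65 the log2 fold change of ion against control did not pass (limma adjusted p = 0.464), and it turned to 0.12 without control replicate 1 and to 0.10 without ion replicate 1.

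ZIP6 (AT2G30080, chr2:12838620-12840252, minus strand), another member of the family, was by its mean among the most abundant members in each group. It stood at 12.2 and 10.9 RPKM in control, 14.2 and 15.5 in nanoparticle and 6.57 and 14.4 in ion roots. The 2 ion libraries enclosed both control libraries, and the log2 fold change was -0.22 ± 0.33 (limma adjusted p = 0.665). ZIP6 shares 36 bases with the potassium transporter gene KT1 (AT2G30070) on the opposite strand, which stood at 6.06 to 14.1 RPKM.

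Of the members with the element, ZIP4 (AT1G10970, chr1:3665087-3667139, minus strand) is known for its strong rise in zinc-starved roots. It stood at 4.55 and 4.20 RPKM in control, 3.94 and 4.31 in nanoparticle and 6.24 and 10.2 in ion roots. Both ion libraries were above the other 4, at 1.92-fold the control reads, but the log2 fold change of 0.75 ± 0.25 did not pass (limma adjusted p = 0.0765).

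ZIP5 (AT1G05300, chr1:1544927-1547849, minus strand), another gene that zinc shortage raises, had 4.70 and 3.11 RPKM in control, 3.08 and 3.41 in nanoparticle and 4.43 and 8.35 in ion roots. Ion replicate 1 lay between the control libraries and ion replicate 2 above them. Its log2 fold change was 0.56 ± 0.31 (limma adjusted p = 0.235).

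ZIP10 (AT1G31260, chr1:11175559-11177362, minus strand), also a target of the zinc shortage response, stood at 2.96 and 1.93 RPKM in control, 1.85 and 1.81 in nanoparticle and 0 in both ion libraries. In reads these were 47 and 29, 28 and 28, and 0 and 0. Every control and nanoparticle library held reads and no ion library did. ZIP10 was at least 23.9-fold lower in ion than in control, computed against 3 reads over the ion group, and the log2 fold change on the log2(RPKM + 1) scale was -1.77 ± 0.24 (limma adjusted p = 0.00339). Both ion values of ZIP10 are exactly 0 and add no spread. The gene entered the test only through the control and nanoparticle libraries, so this p is no support beyond the reads.

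ZIP12 (AT5G62160, chr5:24960107-24961864, plus strand), which is known to be nearly silent in well-fed roots and to appear under zinc shortage, had 0 reads in all 4 control and nanoparticle libraries. Ion replicate 1 held 8 reads (0.608 RPKM) and ion replicate 2 held 6 (0.394 RPKM). A gene length of 534 bases in place of 1068 would make these 4 and 3 reads. Against a floor of 3 reads over the group, and with the longer length, it was at least 4.95-fold higher in ion than in control. In the fit with no filter on low values, which included it, the log2 fold change was 0.58 ± 0.09 (limma adjusted p = 0.0153). The 4 control and nanoparticle values of ZIP12 are exactly 0 and add no spread, so this p is no added support. By reads, 2 members that hold the element upstream and stand low in these roots, ZIP10 and ZIP12, went in opposite directions in ion roots. For ZIP12, which the main fit did not test, this rests on few reads.

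ZIP9 (AT4G33020, chr4:15932420-15934762, minus strand), which zinc shortage raises in roots, stood at 1.93 and 0.212 RPKM in control, 2.45 and 1.78 in nanoparticle and 0 in both ion libraries. In reads these were 29 and 3, 35 and 26, and 0 and 0. Control replicate 2 was at the floor and close to the ion libraries. Over the group ZIP9 was at least 10.1-fold lower in ion than in control, but the log2 fold change of -0.91 ± 0.41 did not pass (limma adjusted p = 0.154). With control replicate 1 as the lone control it was -1.55 (limma adjusted p = 0.013), and the limit rests on control replicate 1, which gave 29 of the 32 control reads.

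ZIP7 (AT2G04032, chr2:1289832-1291444, plus strand) had 3 reads in control replicate 1, 1 in nanoparticle replicate 1 and 0 in the other 4 libraries. These levels are at or under the floor, so a difference was not detectable at this depth.

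**Figure D3:**
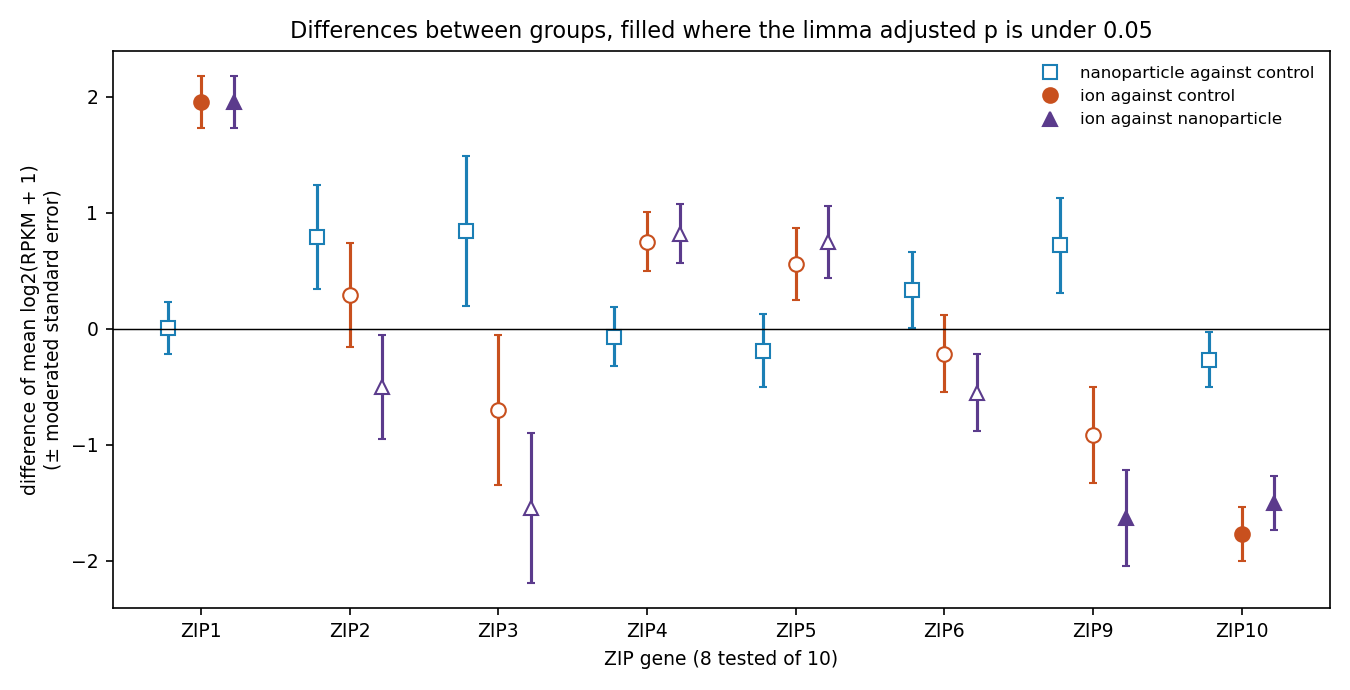
Difference of mean log2(RPKM + 1) between groups (y axis) for the 8 tested ZIP genes (x axis) in 3 comparisons; bars are the moderated standard error and filled symbols have a limma adjusted p under 0.05. ZIP1 lies near 1.95 in both comparisons of ion, ZIP10 at -1.77 and -1.503, and no symbol of nanoparticle against control is filled.

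Nanoparticles against control asked which transcripts respond to the particulate form. Of the 8 tested members 0 passed in limma, 0 had an unadjusted p under 0.05, and 0 passed in limma-voom on the recovered reads. The background was the same, with 0% of the 19648 genes called, although 1307 had an unadjusted p under 0.05. ZIP1 was close to control, with a log2 fold change of 0.00 ± 0.22 (limma adjusted p = 0.998), and ZIP4 at -0.07 ± 0.25 (adjusted p = 0.919). Larger differences belonged to genes whose control libraries lay apart: ZIP3 at 0.84 ± 0.65 (adjusted p = 0.626), ZIP2 at 0.79 ± 0.45 and ZIP9 at 0.72 ± 0.41 (both adjusted p = 0.595). For these 3 genes control replicate 1 was near the nanoparticle libraries and control replicate 2 below them. ZIP6 stood at 0.33 ± 0.33, ZIP5 at -0.19 ± 0.31 and ZIP10 at -0.27 ± 0.24. With control replicate 2, at 3 reads of ZIP9, as the lone control, the value was 1.35 (limma adjusted p = 0.0304), in a fit that called 3521 genes. A p that misses the threshold does not show that nanoparticle and control roots had equal levels.

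Ion against nanoparticle set the dissolved and the particulate form against each other. It shares its ion libraries with ion against control and its nanoparticle libraries with nanoparticle against control. ZIP1 rose (log2 fold change 1.95 ± 0.22, limma adjusted p = 0.00178), ZIP10 fell by 1.503 ± 0.24 (adjusted p = 0.00571) and ZIP9 fell by 1.63 ± 0.41 (adjusted p = 0.0301). Against nanoparticle roots the reads of ZIP10 were at least 17.8-fold and those of ZIP9 at least 19.4-fold lower. Thus 1 of 8 tested members rose, against 13.3% of all genes tested, and 2 fell, against 11.9%. The 2 that fell passed the filter only through the control and nanoparticle libraries. Their ion values are exactly 0 and add no spread, so their p-values are no support beyond the reads. ZIP12, with reads only in ion, lay under the filter, so the filter shapes this count and the median of the tested members. The median log2 fold change was -0.53 over the 8 tested members, -0.27 over all 10 and 0.13 over all genes tested. ZIP4, 2.03-fold higher in reads, was just over the threshold at 0.82 ± 0.25 (limma adjusted p = 0.0558). ZIP3 (-1.54 ± 0.65, adjusted p = 0.126), ZIP5 (0.75 ± 0.31, adjusted p = 0.124), ZIP6 (-0.55 ± 0.33, adjusted p = 0.260) and ZIP2 (-0.51 ± 0.45, adjusted p = 0.440) did not pass either. The nanoparticle libraries lay close together for each of these, within 1.25-fold, while the ion libraries lay further apart. With median-of-ratios scaling, which moves the median over all genes, the genes called in this comparison went from 2622 higher and 2347 lower to 1941 and 2769, and the 3 members called stayed at 1 higher and 2 lower.

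Several of these calls depended on which libraries entered the fit. Leaving out a control library changes no fold here, only the shared spread. ZIP9 did not pass without either nanoparticle library (-1.48 and -1.79, adjusted p = 0.147 and 0.114) or without either ion library (-1.63, adjusted p = 0.139 and 0.123). ZIP10 did not pass without nanoparticle replicate 2 (-1.51, limma adjusted p = 0.0555). ZIP4 passed when either control library was left out (limma adjusted p = 0.0397 and 0.0398) and when ion replicate 1 was (0.0439), ZIP3 without either control library (0.0440 and 0.0443) and ZIP6 without ion replicate 2 (-1.06, 0.0445). ZIP1 passed in both comparisons of ion roots whichever library was left out, at log2 fold changes of 1.75 to 2.15.

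The order of the levels therefore differed between groups. In control roots ZIP6 (11.6 ± 0.953 RPKM, SD, n = 2) and ZIP3 (9.81 ± 7.86) came first, with overlapping libraries, although control replicate 2 of ZIP3 lay among the next 3, which were ZIP1 (4.39 ± 0.817), ZIP4 (4.38 ± 0.246) and ZIP5 (3.90 ± 1.12) and did not differ beyond their spread. In nanoparticle roots ZIP3 (15.6 ± 0.490) and ZIP6 (14.8 ± 0.911) led with overlapping values. In ion roots ZIP1 came first at 19.9 ± 4.13 RPKM, above ZIP6 (10.5 ± 5.56), ZIP4 (8.25 ± 2.83), ZIP5 (6.39 ± 2.78) and ZIP3 (5.61 ± 4.72), whose libraries overlapped. Ranked among all genes of the table, the mean of ZIP1 was at the 38.3rd percentile in control and at the 69.25th in ion.

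Summed over the 10 members, the RPKM were 48.0 and 30.02 in control, 47.8 and 50.05 in nanoparticle and 38.1 and 67.8 in ion libraries. The lowest sum was that of control replicate 2 and the highest that of ion replicate 2, and the groups overlapped. In its make-up the ion group stood apart for ZIP1, which held 44.7% and 33.7% of the sum in ion and 7.95% to 16.6% in the other 4 libraries. ZIP3 held 31.9% to 32.0% in control replicate 1 and both nanoparticle libraries, but 14.1% in control replicate 2 and 5.95% and 13.2% in ion. In its make-up control replicate 2 thus lay between the ion libraries and the rest for these 2 genes. ZIP9 and ZIP10 together went from measurable shares to 0.

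**Figure D4:**
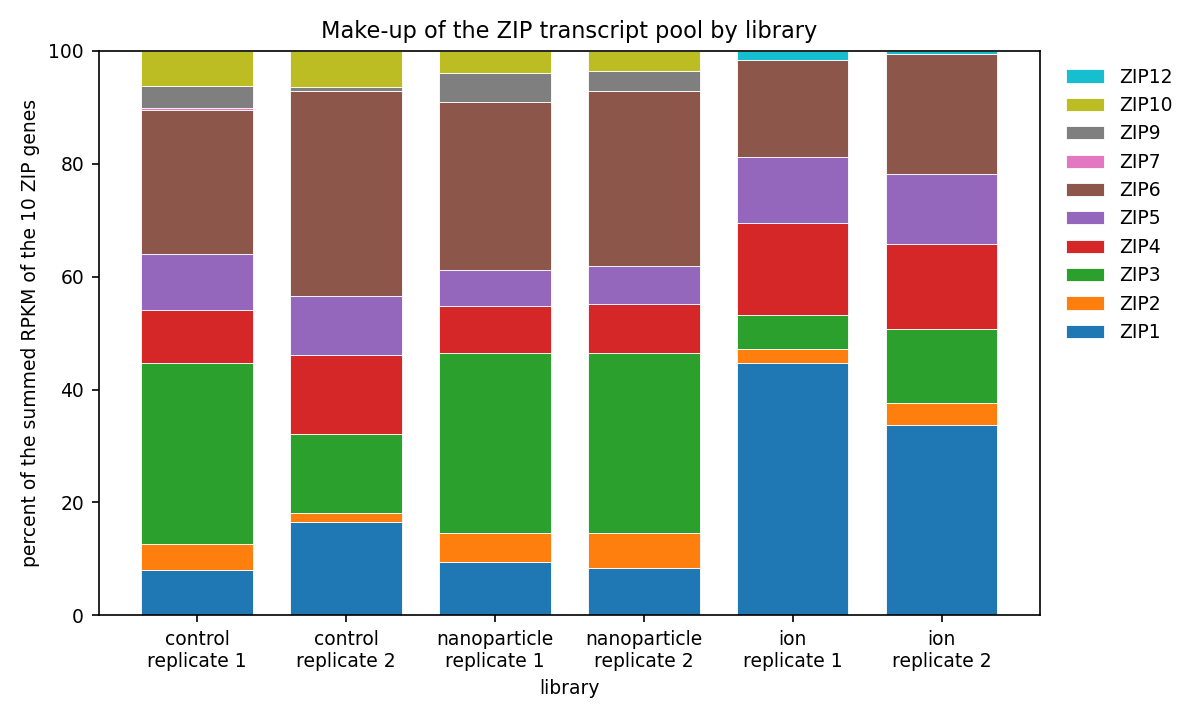
Share of each ZIP gene in the summed RPKM of the 10 genes (y axis, percent, stacked to 100) in each of the 6 libraries (x axis). ZIP1 takes 44.7% and 33.7% in the ion libraries and at most 16.6% in the others, while ZIP9 and ZIP10 are missing from the ion bars.

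The direction of the difference between libraries of a group was counted over the members, without a test. Of the 6 tested members with reads in both ion libraries, 6 were higher in ion replicate 2, by a median of 0.84 on the log2 scale, while over all genes tested the median was 0.01 and 50.6% were higher there. ZIP3 was 3.95 times, ZIP2 2.77 times, ZIP6 2.20 times and ZIP1 1.34 times as high in ion replicate 2 as in ion replicate 1, whereas ZIP12, not tested, was lower there. In control 7 of 8 were lower in replicate 2, with a median difference of -0.45 against 0.03 over all genes, of which 52.2% were higher in replicate 2, and ZIP1 was the member that was higher there. In nanoparticle 5 of 8 were higher in replicate 2, at differences of -0.31 to 0.23 (median 0.08), beside 44.4% of all genes. What set the libraries of a group apart was not tested.

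Other genes of zinc handling were taken from lists of relatives, regulators and exporters. Of 7 further ZIP family genes 5 were tested, and in ion against control 1 rose, 1 fell and 3 did not pass, beside 12.3% higher and 10.3% lower over all genes tested. IRT3 (AT1G60960), a zinc and iron transporter whose coding sequence is 82.0% identical to that of ZIP4, stood at 15.5 and 13.0 RPKM in control, 13.5 and 13.5 in nanoparticle and 24.7 and 35.9 in ion roots. Both ion libraries were above the other 4, and IRT3 rose by a log2 fold change of 1.02 ± 0.22 (limma adjusted p = 0.0203), and against nanoparticle by 1.08 ± 0.22 (0.0153). The first call was lost without either nanoparticle library (adjusted p = 0.0567 and 0.0568), without ion replicate 2 (0.108) and with only the 2 groups in the fit (0.056), and the second without either nanoparticle library (0.101 and 0.121) or ion replicate 2 (0.0794). IRT1 (AT4G19690), the main iron uptake transporter of the root, which also carries zinc, had 251 and 69 reads in control, 587 and 672 in nanoparticle and 0 and 4 in ion libraries. IRT1 passed the filter only through the control and nanoparticle libraries. Its log2 fold change was -2.78 ± 0.46 against control (limma adjusted p = 0.00753) and -4.85 ± 0.46 against nanoparticle (8.93e-04), and the first was lost without either ion library (0.0597 and 0.0516). In nanoparticle against control IRT1 was 3.97-fold higher in reads and did not pass (2.07 ± 0.46, limma adjusted p = 0.595), but did with control replicate 2 as the lone control (2.83, 0.00259).

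The list drawn up for regulators and other targets of the zinc shortage response held bZIP19, bZIP23, bZIP24, NAS2 and NAS4. Of these 5 tested genes 0 passed in ion against control with limma. In ion against nanoparticle 1 fell, where 11.9% of all genes tested did. It was bZIP19 (AT4G35040), which stood at 35.3 and 27.7 RPKM in control, 36.8 and 40.3 in nanoparticle and 15.8 and 21.2 in ion roots. Its log2 fold change was -0.74 ± 0.22 against control (limma adjusted p = 0.0511) and -1.03 ± 0.22 against nanoparticle (0.0160). Both ion libraries were below the other 4. MSI3 (AT4G35050), on the opposite strand, stood at 25.4 and 21.0 RPKM in ion and 13.8 to 17.3 in the other libraries. It shares 302 bases with bZIP19, which makes the level of bZIP19 uncertain. Against control it passed with median-of-ratios scaling, with TPM, with limma-voom and without control replicate 2 (adjusted p = 0.0446, 0.0302, 0.0446 and 0.0253). Against nanoparticle it was lost without either nanoparticle library (0.0911 and 0.147) and without ion replicate 1 (0.106). bZIP23 (0.28 ± 0.22, limma adjusted p = 0.386) and bZIP24 (-0.32 ± 0.20, 0.276) did not pass in ion against control. Nor did the nicotianamine synthase genes NAS2 (0.58 ± 0.28, 0.178) and NAS4 (0.33 ± 0.47, 0.648), which make a metal chelator. bZIP23 shares 126 bases with MSI2 (AT2G16780) on the opposite strand.

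Of 15 genes for zinc export and vacuolar storage 14 were in the table and 13 were tested, and in ion against control 3 fell, 1 rose and 9 did not pass, where 10.3% of all genes tested fell and 12.3% rose. HMA4 (AT2G19110), which loads zinc into the xylem, went from 103 and 160 RPKM in control to 41.9 and 44.8 in ion roots, with 81.9 and 86.3 in nanoparticle (log2 fold change -1.55 ± 0.24, limma adjusted p = 0.00587). HMA3 (AT4G30120), a vacuolar pump that is known to be non-functional in some Columbia lines, went from 2.02 and 1.08 RPKM in control to 0 and 0.0306 in ion (-1.31 ± 0.26, adjusted p = 0.0138). In reads HMA3 had 67 and 34 in control and 0 and 1 in ion, under the floor of 3 reads. It passed the filter only through the control and nanoparticle libraries, so the filter shapes the count of genes that fell. MTP1 (AT2G46800), which moves zinc into the vacuole, had 151 and 144 RPKM in control and 87.8 and 79.1 in ion (-0.81 ± 0.18, adjusted p = 0.0225). NRAMP3 (AT2G23150), which releases iron and other metals from the vacuole, rose from 10.3 and 10.2 to 25.1 and 23.2 RPKM (1.16 ± 0.17, adjusted p = 0.00477). For all 4 genes the ion libraries lay outside the range of the control libraries. In ion against nanoparticle, where 11.9% of all genes tested fell and 13.3% rose, the same 3 fell and the same 1 rose: HMA4 (-0.94, adjusted p = 0.0310), HMA3 (-1.76, 0.00435), MTP1 (-0.82, 0.0204) and NRAMP3 (1.16, 0.00432). In nanoparticle against control 0 of these 13 passed in limma. The calls of MTP1 and HMA4 against nanoparticle were lost without any 1 of the nanoparticle and ion libraries, those of HMA3 against control without either ion library, and that of HMA4 against control without ion replicate 1. NRAMP3 against nanoparticle was lost without either nanoparticle library, and MTP1 against control was lost without any 1 nanoparticle or ion library, with only the 2 groups in the fit and with library weights.

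Genes most like the 3 members that passed were found by the distance between centred log2(RPKM + 1) values over the 6 libraries. Nearest to ZIP1 were the heat shock factor HSFA2 (AT2G26150, distance 0.13) and the transcription factor TGA7 (AT1G77920, 0.20). HSFA2 stood at 3.20 and 4.49 RPKM in ion and 0.194 to 0.308 elsewhere, and TGA7 at 39.5 and 44.1 in ion and 9.07 to 11.6 elsewhere. Nearest to ZIP10 were AT4G04630 (0.16) and CYP705A6 (AT2G05180, 0.20), a cytochrome P450 gene. Nearest to ZIP9 were AT2G45220 (0.25) and DND1 (AT5G15410, 0.33), a cyclic nucleotide-gated channel gene. All 6 libraries enter these distances, which are descriptions. On the log2(RPKM + 1) scale genes of unlike level or fold can lie close. In ion libraries AT4G04630 kept 2.89 and 2.93 RPKM where ZIP10 was at 0, and AT2G45220 kept 24.9 and 25.7 where ZIP9 was at 0.

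Some markers of root cell types, and most of the shoot markers, differed in the ion group as well. Beside 10.3% of all genes tested, all 5 xylem markers fell in ion against control, with a summed level of 55.5 and 56.7 RPKM in ion, 179 and 209 in control and 164 and 165 in nanoparticle. Of 4 root hair markers 2 fell, with sums of 15.8 and 11.003 RPKM in ion, 43.8 and 23.3 in control and 60.2 and 59.9 in nanoparticle. The root hair marker RHD6 went the other way without passing (limma adjusted p = 0.0685). It stood at 14.0 and 10.1 RPKM in ion, most of the sum there, and at 6.71 and 6.63 in control. Of 5 shoot markers 4 fell, at 24.1 and 26.1 RPKM in ion, 106 and 128 in control and 53.8 and 151 in nanoparticle. The endodermis list (1 of 5 fell, sums of 209 to 257 RPKM in ion, 163 to 260 in control and 320 to 341 in nanoparticle) held the 1 marker at 0 in a library, CASP5. The stele (47.3 to 56.3 RPKM), phloem (32.5 to 74.2) and root meristem pairs (5.71 to 16.0) had 0 calls against control in limma. Against nanoparticle 5 xylem, 3 root hair, 3 shoot and 1 endodermis markers fell, while 1 root hair and both meristem markers rose. No marker was at 0 in every library. Within the stele pair, from the tissue linked to ZIP1 and ZIP2, the genes differed in sign and neither passed: SHR was 1.36-fold higher (limma adjusted p = 0.101) and AHK4 1.24-fold lower (0.272) in ion than in control. The part of cell type makeup in the ZIP values was not tested.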

How the data were processed

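RNA sequencing libraries were made from root total RNA with Trizol and a NEBNext Ultra kit, per the labels' protocols. The authors deposited RPKM, a unit taken from what their table is called, and its values do not contradict it. TopHat2 2.0.12, HTSeq 0.6.0 and TAIR10 appear, without roles, in the submitters' processing notes. How strand, filters and multiply matching reads were handled is not stated in them. All columns were mapped to samples, leaving 0 over, and 0 genes were at 0 in every library.

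Reads were recovered as whole multiples of the value of 1 read, using annotated gene lengths to find each total. All 24438 genes came out whole within a tolerance of 1e-06 reads, which was widened in proportion to the reads for genes with many reads. The length used equalled an annotated one for 4048 genes. The next best total was exactly 2 times the one used in each library. For 972 genes a multiple of the smallest possible length was taken. The reads then summed to 12479812 to 14661055, above the totals, and with smallest lengths to 12272983 to 14441110, below them, so reads of some of these genes are overstated. Among the members this choice touches ZIP1 and ZIP12. The length of ZIP12 was taken as its coding length of 1068 bases, since a length of 534 would also give whole reads. That of ZIP1 was taken as its annotated transcript of 1412 bases rather than 706.

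Limma 3.58.1 in R 4.3.3 was run on log2(RPKM + 1), a scale that understates changes of low genes, over 19648 genes (80.4%) and all 3 groups, with an intensity trend, 3 residual and 3.81 prior degrees of freedom. Tests were two-sided and adjusted over all genes tested. Folds are ratios of reads per library total over a group. The method was tested on simulated data with the same spread in every library and changes placed only in genes above a set level. This does not cover groups of unequal spread, as here, or genes as low as ZIP9, ZIP10 and ZIP12. Alternatives covered the pseudocount, filter, scaling, samples, weights, replicate block, limma-voom and leaving out each library. Members and lists were chosen with earlier results of these data known. All 10 members are named. From the lists, genes past the test are named, and 2 genes nearest to each member that passed. Sequences and positions are from RefSeq TAIR10.1 (Biopython 1.88), matched by locus, and may differ from the annotation behind the table.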

Additional observations from a re-analysis of the deposited data

How the results depend on the processing

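The number of ZIP members past the test was 2 in ion against control, 0 in nanoparticle against control and 3 in ion against nanoparticle. With the filter at RPKM 5, which left 4 members tested and removed ZIP9 and ZIP10, it was 1 and 1 for the comparisons of ion. With no filter, 10 members tested, it was 3 and 4, with ZIP12 among them in both. In ion against nanoparticle it was 5 with only the 2 groups compared and 6 with library weights. Leaving out each library gave 2 to 3, 0 to 1 and 1 to 5. Genes called in all were 4446, 0 and 4969. They were 2820 and 8152 for the comparisons of ion with only the 2 groups compared, 2904 and 8277 with library weights, and 1634 to 7773, 0 to 3521 and 1349 to 8133 without each library. Median-of-ratios scaling moved the median log2 fold change of ion against nanoparticle from 0.13 to 0.00 and its calls from 2622 higher and 2347 lower to 1941 and 2769, and TPM moved that of ion against control from 0.06 to -0.04. Neither changed a call of a ZIP member. With limma-voom ZIP10 stood at -6.14 and with a pseudocount of 0.1 at -4.64 in ion against control.

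Of 355 values of single members under an alternative, 328 kept direction and side of the threshold, 13 newly passed, 5 no longer passed and 9 changed sign, none of the 9 past the test. These 9 were ZIP1 in nanoparticle against control with TPM (-0.062), and values without a library. Without each library the ranges were -0.15 to 0.16 for ZIP1 and -0.43 to 0.047 for ZIP5 in nanoparticle against control, and -0.29 to 0.87 for ZIP2, -1.52 to 0.12 for ZIP3 and -0.73 to 0.30 for ZIP6 in ion against control. The cause of these shifts was not tested. With the replicate block the ZIP counts stayed at 2, 0 and 3, and 3733, 0 and 4043 genes were called. Same-numbered libraries deviated with correlations of -0.05 (control and nanoparticle), -0.16 (control and ion) and 0.08 (nanoparticle and ion), so the numbers are not shown to pair them. With ion numbers crossed, chosen after seeing the data, the replicate block called 4450 genes and 2 ZIP members in ion against control. Depth limits ZIP7, ZIP9, ZIP10 and ZIP12, with at most 47 reads in a library.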

Other observations

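Besides the ZIP members, 61 genes of the table held the zinc deficiency response element in the 1000 bases before their start codon, and 53 of them were tested. In ion against control 10 rose and 6 fell, at a median log2 fold change of 0.02, and in ion against nanoparticle 9 rose and 10 fell, at a median of 0.12. In nanoparticle against control 0 passed in limma. Over all genes tested 12.3% rose and 10.3% fell in ion against control, at a median of 0.06, and 13.3% rose and 11.9% fell in ion against nanoparticle, at a median of 0.13.

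Across the 6 libraries, as a description over few points that share groups, the log2(RPKM + 1) values of ZIP4 and ZIP5 correlated at 0.94, those of ZIP1 and ZIP4 at 0.93 and those of ZIP3 and ZIP6 at 0.87, while ZIP1 and ZIP10 correlated at -0.98. ZIP3 and ZIP5 have the most similar coding sequences among the members, 79.9% identical over aligned bases, and their levels correlated at -0.05. Reads of such relatives can in principle match both, and how these were counted is not given in the sources used here.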
